A study of Mus musculus with 12 samples.

Results

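The change of the response to all-trans retinoic acid (atRA) with the RARaKO genotype was followed in F9 cells, a mouse teratocarcinoma line whose cells resemble early embryonic cells. It was computed as the atRA response of RARaKO cells minus the atRA response of WT cells, overall and within each of the sets numbered 2, 3 and 4, and it used all 12 of the 12 arrays. The groups were WT cells in ethanol vehicle, WT cells in atRA, RARaKO cells in vehicle and RARaKO cells in atRA, with 3 arrays each, 1 per set. All 4 groups were treated with cycloheximide, which blocks protein synthesis, at 1 µg/ml, given 30 min before 1 µM atRA or 0.1% ethanol, which then stayed on for 7.5 h. RARaKO is the label of cells that lack Rara, the gene of retinoic acid receptor alpha. The labels do not say how Rara was knocked out, whether the RARaKO cells are 1 clone, or whether the sets are separate cultures, so a p-value here reflects the spread among arrays, which may be technical.

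Retinoic acid acts through nuclear receptors, RARalpha, RARbeta and RARgamma, which sit on DNA with a retinoid X receptor partner at direct repeats of a short half-site. Without ligand the pair recruits corepressors, and with ligand it recruits coactivators, so loss of a receptor can alter both the unstimulated and the stimulated level of a target. In F9 cells retinoic acid starts differentiation towards extraembryonic endoderm and turns on Rarb, the Hox genes and the retinoic acid hydroxylase gene Cyp26a1. Cycloheximide blocks the making of new protein, so responses that need a newly made protein are held back.

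Rarb and Cyp26a1 are shown first because they are the rising genes whose promoter window held a receptor element, and because the ratio of their responses differed (given after the counts). The windows run from 250 bases before to 50 bases after the RefSeq start of the gene (GRCm38.p6), 5′ to 3′ on the gene's strand, and capitals mark the direct repeat with a spacing of 5 bases (DR5).
Rarb, chr14:16575427-16575726, minus strand: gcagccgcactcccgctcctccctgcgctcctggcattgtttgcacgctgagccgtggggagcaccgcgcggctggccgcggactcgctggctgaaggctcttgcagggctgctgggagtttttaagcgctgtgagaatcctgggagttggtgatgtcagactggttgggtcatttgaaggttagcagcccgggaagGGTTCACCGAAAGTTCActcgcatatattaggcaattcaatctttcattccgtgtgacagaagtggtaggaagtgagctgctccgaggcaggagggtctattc
Cyp26a1, chr19:37697558-37697857, plus strand: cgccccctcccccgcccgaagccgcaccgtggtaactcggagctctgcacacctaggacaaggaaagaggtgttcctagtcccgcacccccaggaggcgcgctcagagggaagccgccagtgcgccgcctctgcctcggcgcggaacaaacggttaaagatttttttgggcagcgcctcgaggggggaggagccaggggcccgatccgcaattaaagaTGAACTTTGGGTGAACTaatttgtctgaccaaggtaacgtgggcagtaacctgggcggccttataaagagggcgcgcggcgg
The Rarb repeat lay 53 to 37 bases before the start in the forward orientation, and the Cyp26a1 repeat lay 32 to 16 bases before it in the reverse orientation. Both strands were searched. Among 179 rising responder genes (defined next) with a window, 2 held a DR5, 1.12%, and both are printed here. Of 76 falling responder genes 0 did, against 31 of 27025 genes with a window, 0.115%. A repeat with a spacing of 2 (DR2) was found in 0 of the 179 and 0 of the 76, and in 84 of the 27025, 0.311%. A match describes letters in this window only.

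Each value is the authors' GCRMA expression value, taken as log2 and centred per probe set on its median over the 12 arrays, so differences carry meaning and levels do not. A coarse class of the lowest value over the arrays before centring survives in the number steps. Of all probe sets 33.9% lay in the highest class, a lowest value of at least 8. All 10 embryonal carcinoma markers (Pou5f1, Nanog and Sox2 among them) lay in it, as did 7 of 9 endoderm, 1 of 5 neural, 0 of 5 fibroblast and 1 of 4 trophoblast markers; probes differ in brightness, so this does not rank the cell types. The single Rara probe set read higher in the arrays labelled RARaKO, so directions between genotypes here rest on the labels alone. The RARaKO atRA array of set 2 stood apart, with the largest SD over all probe sets (0.201, against 0.128 to 0.162) and the lowest estimated array weight (0.516), and values without it are given beside the results they touch. The median 95% interval of a change of response reached 0.27 log2 units to either side.

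Responder genes were those whose response, averaged over both genotypes, passed the test (limma, adjusted p under 0.05). In the balanced fit, if all groups have equal spread, this average is independent of the change of response. The choice then does not push the change either way. The estimated array weights ran from 0.516 to 2.34, so the arrays were not of equal spread, and what this does to the choice was not tested. It gave 339 of 16509 genes (2.05%): 232 that rose with atRA (1.41% of genes) and 107 that fell (0.648%). No change of response passed the test. Of 37600 probe sets 0 were called (0%, with a smallest adjusted p of 1.00, limma), and 1168 had an unadjusted p under 0.05 (3.11%), fewer than the 1880 of evenly spread p-values. Over the 603 probe sets called in the average response (1.6%) alone 0 were called as well, with a smallest adjusted p of 0.549 and 37 at an unadjusted p under 0.05. These counts come from a fit that leaves out the set. An unadjusted p under 0.05 was found for 1633 probe sets with the set as a block, and for 1750 with differences taken within sets. With the block, 76 of its 887 responding probe sets had one. In each of these 0 changes were called. The sizes below are therefore descriptions of single genes with their intervals.

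**Figure D1:**
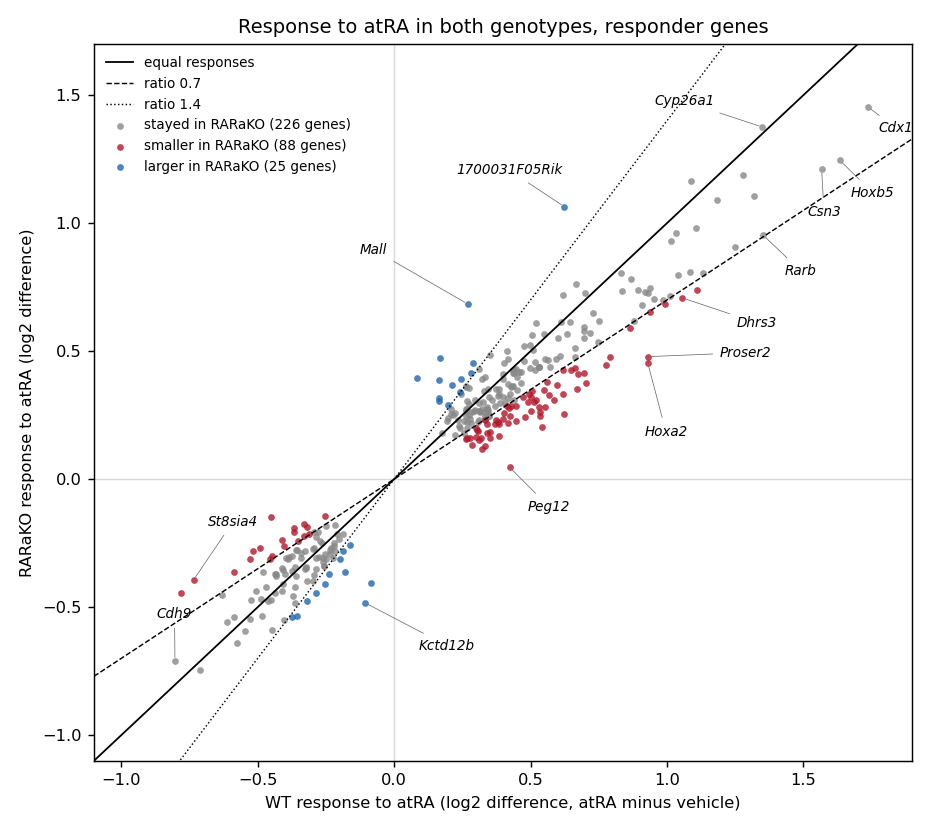
Response to atRA of each of the 339 responder genes in WT (x axis) and RARaKO (y axis), both as log2 differences between atRA and vehicle (means of 3 arrays each). The solid line marks equal responses, the dashed and dotted lines mark ratios of 0.7 and 1.4, and colours give the class. Among rising genes, 181 of 232 lie below the solid line.

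Most rising genes had a smaller response in RARaKO, though no single gene passed the test. The ratio of the RARaKO response to the WT response had a median of 0.82 (quartiles 0.67 and 0.97) over the 232 rising genes, and 181 of them (78.0%) had a ratio below 1. By ratio, 69 were smaller (under 0.7), 150 stayed (0.7 to 1.4) and 13 were larger (over 1.4). For the falling genes the median ratio was 0.96, 54 of 107 (50.5%) lay below 1, and 19 were smaller, 76 stayed and 12 were larger. In a fit with a covariate from control genes (described below), 73.2% of the rising and 70.8% of the falling genes had a ratio below 1. Responders were chosen anew in that fit, where the average is not independent of the change of response. The near equal shares therefore cannot tell whether the contrast between rising and falling genes was kept. Without the RARaKO atRA array of set 2 the classes of all responders held 78 smaller, 181 stayed and 33 larger genes, against 88, 226 and 25 with it. Ratios ran from 0.11 (Peg12, 0.42 in WT and 0.05 in RARaKO) to 4.74 (Clvs2, -0.09 and -0.40), each with a small response in 1 genotype. The tilt of the rising genes stood at every size of response: 48 of 68 genes with an average under 0.3 had a ratio below 1, as had 26 of 29 genes with an average over 0.8, and the median ratios were 0.82 and 0.79. These genes share the same 12 arrays and are not independent of each other.

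Set by set, the reduction of the rising genes was small in set 2 and larger in sets 3 and 4. In set 2 the median response was 0.41 in WT and 0.41 in RARaKO, with 137 of 232 genes smaller in RARaKO. In set 3 the medians were 0.44 and 0.32, with 169 genes smaller. In set 4 they were 0.45 and 0.35, with 186 smaller. A smaller response in all 3 sets was found for 96 rising genes (41.4%), in 2 sets for 80, in 1 set for 44 and in none for 12. Over all genes tested, 10.5% were smaller in all 3 sets and 11.3% larger in all 3. Over the 7210 genes with an average above 0, responders included, the shares were 10.4% and 14%. In sets 3 and 4 together, which leaves out the array that stood apart, 141 rising genes (60.8%) were smaller in both, against 27.3% of the 7210. When that array was left out and responders were chosen anew, 75.4% of the rising genes had a ratio below 1. The lowest such share was 66.8%, without the RARaKO atRA array of set 3, and the highest was 89.4%, without set 2. A fit without a single array is unbalanced, so there the choice of responders can itself move the share.

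For falling genes the sets disagreed. The share with a smaller response in RARaKO was 62.6% in set 2, 52.3% in set 3 and 38.3% in set 4, and the median fall in RARaKO over that in WT was 0.77, 0.95 and 1.12. In all 3 sets 15 of 107 falling genes were smaller (14%) and 9 larger (8.41%), beside 10.5% and 9.22% of the 9299 genes with an average below 0. Of the 11 falling genes in the pathway lists Foxd3, Myc, Cdx4, Otx2, Fst and Gap43 had ratios above 1 and Aldh1a2, Id4, Vim, St8sia4 and Neurog3 below it. Id4 lay below 1 by the probe set used and above 1 by its other probe sets. The share of falling genes with a ratio below 1 ran from 43.8% without the RARaKO vehicle array of set 2 to 71.4% without set 3. Where a single array was left out, the choice of responders can itself move this share.

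**Figure D2:**
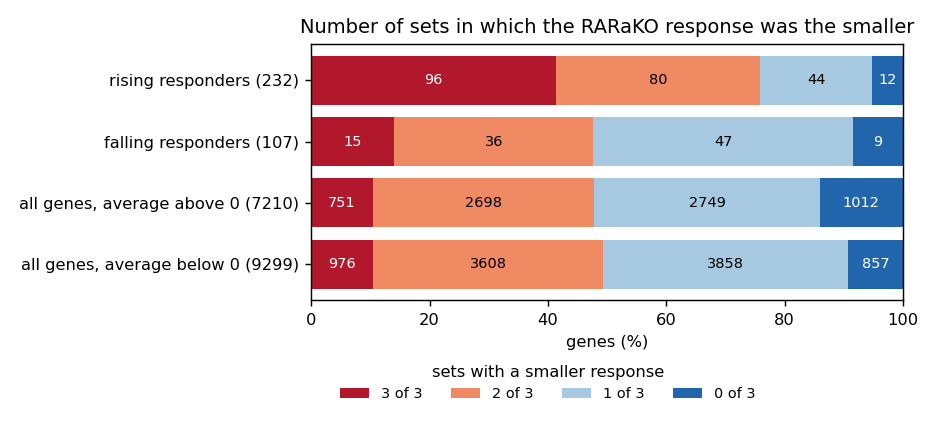
Share of genes (x axis, percent) whose atRA response was smaller in RARaKO than in WT in 3, 2, 1 or 0 of the 3 sets, for rising and falling responder genes and for all genes by the sign of their average response. Numbers in the bars are genes. The leftmost segment, all 3 sets, holds 96 of the 232 rising genes and 751 of the 7210 genes with an average above 0.

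A measure used for RNA quality, read from control probe sets, moved differently with atRA in WT and RARaKO. The mean 5′ minus 3′ difference of 4 control genes (Actb, Gapdh, Tfrc and Pcx) went up with atRA in WT by 0.108, 0.0982 and 0.0716 in sets 2, 3 and 4, and moved by -0.0127, 0.0239 and -0.0423 in RARaKO. Its change between genotypes was thus -0.121, -0.0743 and -0.114, of 1 sign in all 3 sets. The 4 genes did not move together. In WT, Tfrc read -0.171, -0.479 and -0.114 in vehicle and 0.0627, -0.112 and 0.162 in atRA, a rise in each set. Actb read 0.0593, -0.0161 and -0.0504 in vehicle and -0.0160, -0.0306 and -0.0585 in atRA, a fall in each set. Whether the mean reads RNA quality was not tested. With the mean 5′ minus 3′ difference as a covariate in the fit, the median ratio over all responders was 0.82, against 0.85 without it. The shares below 1 were the near equal ones given above. Of 68 named genes 24 had a change that moved by over 1.5 times or turned: 10 became smaller, 3 turned and 11 became larger. Of 17 called start differences of named genes 1, that of Rara, held with the covariate, and of 9 called end differences 7 did. The median change over all probe sets was 0.04 in set 2, 0.00 in set 3 and -0.01 in set 4.

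Among the receptors, Rarb had a smaller response in RARaKO. Rarb, itself a target and the receptor most strongly induced by retinoic acid, read -1.05, -1.01 and -0.94 in WT vehicle and 0.33, 0.31 and 0.41 in WT atRA (sets 2, 3 and 4; probe set 1454906_at). In RARaKO it read -0.56, -0.50 and -0.31 in vehicle and 0.51, 0.34 and 0.63 in atRA. The 3 RARaKO vehicle arrays all lay above the WT vehicle arrays, while in atRA the genotypes overlapped. The response was 1.35 ± 0.09 in WT and 0.95 ± 0.09 in RARaKO, 70.5% of the WT response (± is the SE of the fit), just inside the limit for a response that stayed. The change was -0.40 ± 0.12 (95% interval -0.66 to -0.14), with -0.32, -0.47 and -0.40 in the 3 sets. The start difference was called and the end difference was not: RARaKO exceeded WT by 0.54 in vehicle (limma, adjusted p = 0.00394) and by 0.14 in atRA (adjusted p = 0.424). With the 5′ minus 3′ covariate the start difference was 0.31 (adjusted p = 0.351) and the change -0.25 ± 0.13.

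Rara was read by 1 probe set (1450180_a_at). In WT it read -0.55, -0.50 and -0.76 in vehicle and -0.26, -0.05 and -0.17 in atRA. In RARaKO it read 0.29, 0.32 and 0.30 in vehicle and 0.26, 0.05 and 0.29 in atRA. All RARaKO arrays lay above all WT arrays, and only in WT did the atRA arrays lie wholly above the vehicle arrays. The response was 0.45 ± 0.09 in WT (adjusted p = 0.0460) and -0.10 ± 0.09 in RARaKO (adjusted p = 0.839), a change of -0.55 ± 0.12 (95% interval -0.82 to -0.28). It was the second lowest change among genes with 1 sign in all 3 sets (-0.31, -0.72 and -0.60). Which exons this probe set reads was not tested. Rarg, the gene of the gamma receptor, was not a responder: its response was 0.21 ± 0.07 in WT and 0.11 ± 0.07 in RARaKO, its average had an adjusted p of 0.185, and the change was -0.10 (95% interval -0.32 to 0.11). Its second probe set had responses of 0.26 and 0.00 and a change of -0.26, and with the covariate the first gave -0.21. Ncoa1, a coactivator gene, had a change of 0.16 ± 0.13. Of 24 receptor and co-regulator genes 4 rose on average (Rarb, Nrip1, Nr6a1 and Rxrg), 3 of them with a ratio below 1.

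Cyp26a1, the hydroxylase that clears retinoic acid, had nearly equal responses. It read -0.57, -0.90 and -0.59 in WT vehicle and 0.67, 0.66 and 0.65 in WT atRA. In RARaKO it read -0.70, -0.73 and -0.82 in vehicle and 0.68, 0.63 and 0.57 in atRA (1419430_at). Genotypes overlapped in vehicle and in atRA alike. The responses were 1.35 ± 0.08 and 1.38 ± 0.08, and the change was 0.03 ± 0.12 with a 95% interval of -0.23 to 0.28. Its sign depended on single arrays and sets (0.13, -0.20 and 0.15 in sets 2, 3 and 4). Rarb and Cyp26a1, the pair with a DR5 in the printed windows, thus had changes of -0.40 and 0.03; the difference between these genes was not tested.

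Dhrs3 encodes a reductase that turns retinaldehyde back to retinol. It read -0.85, -0.78 and -0.52 in WT vehicle against -0.34, -0.23 and -0.50 in RARaKO vehicle, and 0.30, 0.37 and 0.35 against 0.43, 0.38 and 0.23 in atRA. As for Rarb, the genotypes met in atRA and stood apart in vehicle, by 0.36 (adjusted p = 0.0630). The response was 1.06 ± 0.09 in WT and 0.71 ± 0.09 in RARaKO, a change of -0.35 ± 0.13. Among 22 measured genes of retinoid uptake, storage and breakdown, 3 rose (Cyp26a1, Dhrs3 and Stra6, the retinol uptake receptor) and 1 fell (Aldh1a2, which makes retinoic acid). Lrat, which esterifies retinol for storage, was not a responder and had a change of 0.33 ± 0.14, and Aldh1a1, a retinaldehyde dehydrogenase, of -0.27 ± 0.17.

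The Hox genes pattern the body axis. Of 30 measured Hox genes 9 rose on average and 0 fell. All 9 had a ratio below 1 (0.49 to 0.98, median 0.74), beside 78.0% and a median of 0.82 over all rising genes, and 5 of them were smaller in each set, beside 41.4%. No change of a Hox gene passed the test. The changes of Hoxa2, Hoxb1, Hoxb2 and Hoxb5 had an unadjusted p under 0.05, 4 of 30 or 13.3% (2.53% of all genes). Over all 30 the median change was -0.02, with 6 genes below 0 and 4 above 0 in all 3 sets. In vehicle 0 Hox genes were called higher in RARaKO (2.04% of all genes) and 2 lower (1.33% of all genes), and in atRA 0 higher (1.73%) and 5 lower (1.76%).

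Hoxb5 and Hoxb1 were lower in RARaKO at the start and at the end, and Hoxb2 at the end. Hoxb5 read -0.61, -0.09 and -0.29 in WT vehicle, 1.15, 1.39 and 1.37 in WT atRA, -0.91, -1.15 and -1.27 in RARaKO vehicle and 0.13, 0.20 and 0.09 in RARaKO atRA. The RARaKO arrays lay below the WT arrays in vehicle and in atRA. Its start difference was -0.78 (adjusted p = 0.00475) and its end difference -1.17 (adjusted p = 2.75e-04), and the response was 1.63 ± 0.13 in WT and 1.25 ± 0.13 in RARaKO. The change of -0.39 ± 0.18 was -0.73, -0.13 and -0.30 in the sets. Hoxb1, a hindbrain gene, read -0.09, 0.12 and -0.15 in WT vehicle, 0.86, 1.29 and 1.06 in WT atRA, -0.56, -0.65 and -0.87 in RARaKO vehicle and 0.14, -0.02 and 0.02 in RARaKO atRA. The RARaKO arrays in atRA thus only reached the level of the WT arrays in vehicle. The change was -0.37 ± 0.16, the start difference -0.65 (adjusted p = 0.00765) and the end difference -1.02 (adjusted p = 3.58e-04). Hoxb2 had a change of -0.31 ± 0.14, with a called end difference of -0.63 (adjusted p = 0.00326) and a start difference of -0.32 (adjusted p = 0.104). The 3 end calls held without each single array and with the 5′ minus 3′ covariate, while the start calls of Hoxb1 and Hoxb5 did not hold with it (adjusted p = 0.382 and 0.291).

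Hoxa2, another hindbrain gene, had the largest shrinkage among responders of 1 sign in all sets, and its genotypes parted at the end. It read -0.10, -0.30 and -0.30 in WT vehicle and 0.03, -0.36 and -0.57 in RARaKO vehicle, which overlap. In atRA it read 0.70, 0.61 and 0.79 in WT and 0.14, 0.36 and -0.03 in RARaKO, which do not. The response was 0.93 ± 0.14 in WT and 0.45 ± 0.14 in RARaKO, 48.6% of WT, and the change -0.48 ± 0.19 (95% interval -0.90 to -0.06). The start difference was -0.07 and the end difference -0.54 (adjusted p = 0.0529). Hoxa5, with responses of 1.28 ± 0.22 and 1.19 ± 0.22, had a change of -0.09 (95% interval -0.78 to 0.59), too wide to place it.

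**Figure D3:**
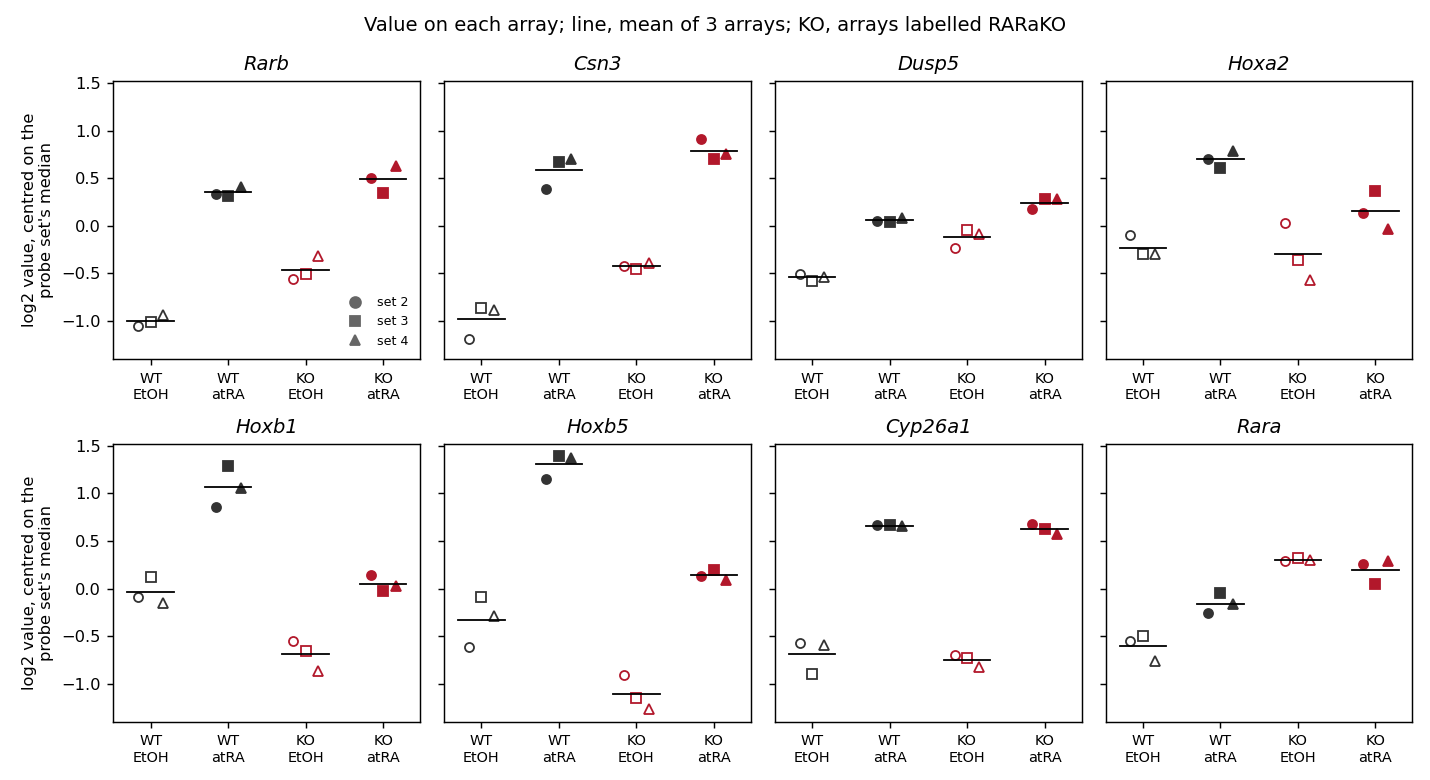
Value on each array (y axis, log2 relative to the probe set's median over 12 arrays) of 8 genes in the 4 groups (x axis); symbols give the set, open symbols vehicle, filled symbols atRA, and lines the mean of 3 arrays. Rarb, Csn3 and Dusp5 differ between genotypes mainly in vehicle, Hoxa2 in atRA, and Hoxb1 and Hoxb5 in both, while Cyp26a1 overlaps in both.

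Csn3 and Dusp5, like Rarb, differed between genotypes more in vehicle than in atRA. Csn3, the kappa-casein gene, read -1.19, -0.86 and -0.88 in WT vehicle against -0.42, -0.45 and -0.39 in RARaKO vehicle, and 0.39, 0.67 and 0.71 against 0.91, 0.70 and 0.76 in atRA. Its start difference was 0.56 (adjusted p = 0.0107), its end difference 0.20 (adjusted p = 0.329) and its change -0.36 ± 0.15. Dusp5, a nuclear phosphatase of ERK, read -0.51, -0.58 and -0.53 in WT vehicle against -0.23, -0.04 and -0.09 in RARaKO vehicle, and 0.05, 0.04 and 0.08 against 0.17, 0.28 and 0.28 in atRA. For Csn3 the genotypes overlapped in atRA and not in vehicle, and for Dusp5 the RARaKO arrays lay higher in both. The response was 0.60 ± 0.06 in WT and 0.37 ± 0.06 in RARaKO, a change of -0.23 ± 0.09, with a start difference of 0.42 (adjusted p = 0.00346) and an end difference of 0.19 (adjusted p = 0.142). These start calls held without each single array but not with the 5′ minus 3′ covariate (adjusted p = 0.219 for Csn3 and 0.103 for Dusp5).

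Peg12, an imprinted gene, responded in WT with no sizeable response in RARaKO. It read -0.31, -0.31 and -0.43 in WT vehicle and 0.06, 0.15 and 0.00 in WT atRA, against 0.03, -0.15 and 0.04 in RARaKO vehicle and -0.00, -0.01 and 0.06 in RARaKO atRA. The WT vehicle arrays stood below the 9 others. The response was 0.42 ± 0.07 in WT (adjusted p = 0.0167) and 0.05 ± 0.07 in RARaKO (adjusted p = 0.917), and the change -0.38 ± 0.10 (95% interval -0.59 to -0.16; -0.40, -0.31 and -0.41 in the sets). Its start difference of 0.32 (adjusted p = 0.0281) was lost without any 1 of the 3 WT vehicle arrays or of the RARaKO vehicle arrays of sets 2 and 4 (adjusted p from 0.0593 to 0.130). Its average response was called with 1 of the 12 arrays left out and not with the other 11 (adjusted p up to 0.0985). With the 5′ minus 3′ covariate neither its average response (limma, adjusted p = 0.149) nor its start difference (0.19, adjusted p = 0.577) was called. The Peg12 probe set lay in the lowest level class. Proser2 (0.93 ± 0.16 against 0.48 ± 0.16) and Acbd7, an acyl-CoA-binding protein gene (0.62 ± 0.13 against 0.25 ± 0.13), completed the 8 largest shrinkages. The average response of Acbd7 was not called when any of 7 single arrays was left out (adjusted p up to 0.0932). A second probe set of Proser2 gave a change of 0.06, against -0.45 for the one used. With the 5′ minus 3′ covariate the change was -0.058 for Proser2 and -0.11 for Acbd7, against -0.29 for Peg12.

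**Figure D4:**
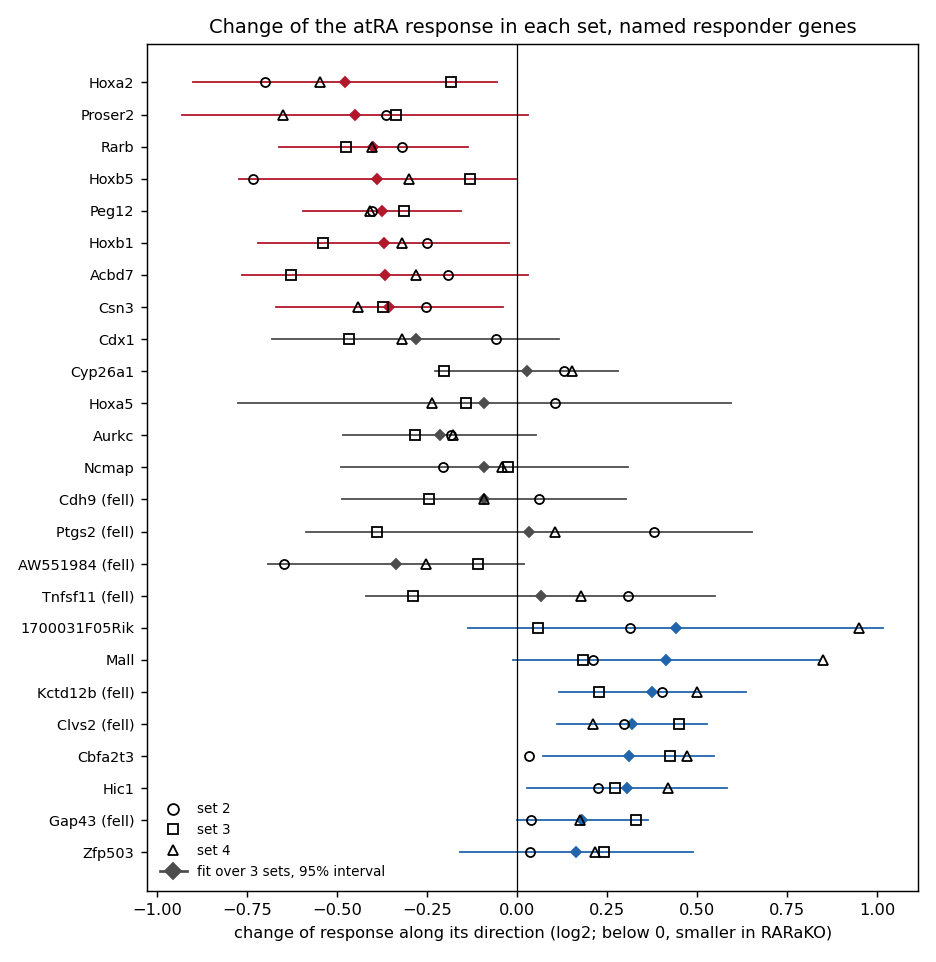
Change of the atRA response of named responder genes along the direction of the response (x axis, log2; below 0 means smaller in RARaKO), within each set (open symbols) and in the fit over 3 sets (diamonds, with 95% intervals). From the top are the 8 largest shrinkages, the 9 other strongest rises and falls, and the 8 largest growths. Rarb and Peg12 keep the 3 sets close together, while Hoxb5 runs from -0.73 to -0.13.

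Several of the strongest rises stayed within the ratio limits. Cdx1, a posterior homeobox gene, had responses of 1.74 ± 0.13 and 1.45 ± 0.13 and a change of -0.28 (95% interval -0.68 to 0.12; -0.06, -0.47 and -0.32 in the sets; -0.070 with the 5′ minus 3′ covariate). Aurkc, a meiotic kinase, had 1.32 ± 0.09 and 1.10 ± 0.09, with a change of -0.22 (95% interval -0.48 to 0.05). Its start difference was 0.66 (adjusted p = 0.00106) and its end difference 0.45 (adjusted p = 0.0139), the latter with an adjusted p of 0.0601 without the WT atRA array of set 2. The start call was not kept with the covariate (adjusted p = 0.0650), and the end call was (0.0265). Ncmap, a gene of myelin-forming cells, had 1.18 ± 0.13 and 1.09 ± 0.13, and the sign of its change (-0.09 ± 0.18) turned with array weights (0.02) and with the 5′ minus 3′ covariate (0.26). The intervals of these genes reach past -0.4, so a reduction as large as that of Rarb could not be told from none.

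Growth in RARaKO was seen in fewer genes, most of low response in WT. 1700031F05Rik read -0.33, -0.24 and -0.24 in WT vehicle, 0.08, 0.59 and 0.38 in WT atRA, -0.16, -0.15 and -0.08 in RARaKO vehicle and 0.56, 0.74 and 1.49 in RARaKO atRA. The RARaKO atRA array of set 4 was the highest, and the change of 0.44 ± 0.27 was 0.95 in that set and 0.06 in set 3. Mall, a membrane proteolipid gene, read 0.14, -0.03 and -0.09 in WT atRA and 0.36, 0.51 and 0.77 in RARaKO atRA, which do not overlap, and its change was 0.41 ± 0.20. Its second probe set gave 0.30. Kctd12b, which fell, read 0.07, 0.03 and -0.09 in WT vehicle and 0.53, 0.26 and 0.36 in RARaKO vehicle, and the genotypes overlapped in atRA. Its larger fall (0.48 ± 0.08 in RARaKO, 0.11 ± 0.08 in WT, as sizes) thus began from a higher start, by 0.38 (adjusted p = 0.0301; 0.290 with the 5′ minus 3′ covariate).

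Cbfa2t3, a corepressor gene, had a response of 0.08 ± 0.08 in WT and 0.39 ± 0.08 in RARaKO. Hic1, a zinc finger repressor gene, had 0.17 ± 0.09 and 0.47 ± 0.09. Clvs2 fell by 0.09 in WT and by 0.40 in RARaKO on the log2 scale, and Gap43, a growth cone gene, by 0.18 and 0.36. For these genes the changes lay between 0.18 and 0.32 in size, and Gap43 was lower in RARaKO in atRA by 0.47 (adjusted p = 8.10e-04), a call that held without each single array. Gap43 also had a called start difference of -0.29, lower in RARaKO in vehicle. That call was lost without any of 5 single arrays (limma, adjusted p up to 0.0801) and with the 5′ minus 3′ covariate (adjusted p = 0.355). Zfp503 had a change of 0.16 ± 0.15, which became -0.09 with the mean of its probe sets. The other probe sets of Cbfa2t3 gave changes of 0.18, 0.036 and 0.0094, the last with responses of 0.32 in WT and 0.33 in RARaKO. The average responses of Kctd12b, Clvs2, Mall, Hic1, Cbfa2t3 and Zfp503 were each lost without 7 to 11 of the 12 single arrays (adjusted p up to 0.122), and the start difference of Kctd12b without 5 of them (up to 0.132).

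Whether start or end differed was then counted over all responders. The end difference minus the start difference is the change of response by arithmetic, so class and side are linked. A start difference was called (limma) for 50 of the 339 responders, beside 3.37% of all genes, and an end difference for 43, beside 3.48%, with 25 genes in both. Without the RARaKO atRA array of set 2 the called ends numbered 25. Of the 28 rising genes with a called start, 23 were higher in RARaKO in vehicle, which is the way atRA moves them. Of the 25 with a called end, 9 were higher in RARaKO and the rest lower. Over all 232 rising genes the median start difference was 0.04 and the median end difference -0.02. With the set as a block, where more genes were responders, 100 had a called start and 96 a called end. With the 5′ minus 3′ covariate 5 responders had a called start and 33 a called end. That difference lay between -0.123 and -0.0844 in the 3 WT vehicle arrays and between -0.0227 and 0.132 in the 3 RARaKO vehicle arrays, and its part in the start differences cannot be told apart from genotype in these 2 groups.

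Among the 69 rising genes of the smaller class, 9 had only a called start, 7 only a called end, 2 both and 51 neither. Those with a start alone were Peg12, Dusp5, Nphs1, Chrna5, Ccdc120, Acp5, AI467606, Cxcr4 and Sox13. Those with an end alone were Hoxb2, Rxrg, Sgpl1, Camk1, Lin7b, Btn1a1 and G0s2, and those with both were Hoxb1 and Fstl3. The median start difference of the class was 0.07 and the median end difference -0.13. Of its 11 start calls 9 were higher in RARaKO, and of its 9 end calls 0 were. The genes listed here beyond the named ones complete these counts.

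Among the 13 rising genes of the larger class 0 had a called start and 2, Ptf1a and Sh2d5, a called end, both higher in RARaKO. The median start difference of this class was 0.02 and the median end difference 0.26. Among the 150 that stayed, 17 had a called start and 14 a called end, 8 of them both, among them Hoxb5, Stra8, Fgfr4, Chd7 and Aurkc. Stra8, a gate gene of meiosis, and Hoxb5 thus carried a genotype difference through both conditions with ratios inside the limits.

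**Figure D5:**
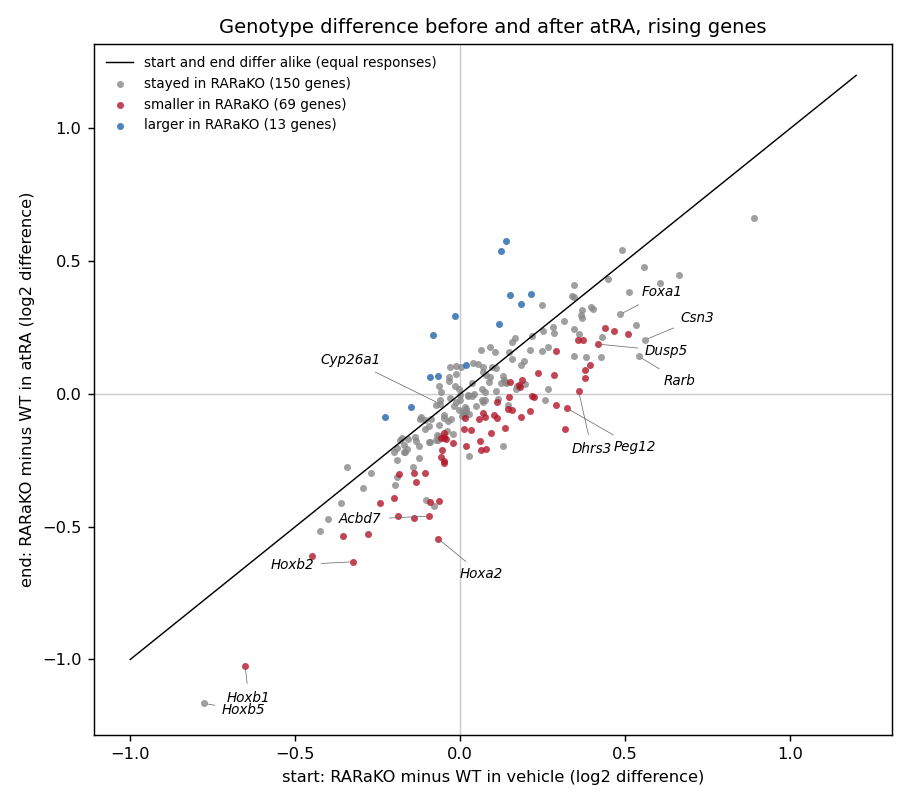
Difference between RARaKO and WT in vehicle (x axis, start) and in atRA (y axis, end), both log2, for the 232 rising genes, coloured by class. Points below the diagonal responded less in RARaKO. Rarb, Csn3, Dusp5, Dhrs3 and Peg12 lie to the right at end differences from -0.05 to 0.20, Hoxa2 and Acbd7 below the centre, and Hoxb1 and Hoxb5 at the lower left.

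Some falling genes began lower in RARaKO, in each class. Of 19 in the smaller class, 5 had a called start difference, all 5 lower in RARaKO in vehicle, the way atRA moves them. Among these, Tnfaip6 and Sned1 also had a called end. Of 76 that stayed 11 had a called start, 8 of them lower, and of 12 larger ones 6, 3 of them lower. Over all 107 falling genes 22 had a called start (16 lower in RARaKO), 18 a called end (14 lower) and 15 both. Over all genes 3.37% had a called start and 3.48% a called end. St8sia4, a polysialic acid synthase, read 0.81, 0.52 and 0.60 in WT vehicle and 0.18, 0.09 and -0.04 in RARaKO vehicle, without overlap. In atRA it read -0.14, -0.17 and 0.04 in WT and -0.55, -0.08 and -0.31 in RARaKO, with overlap. Its fall was 0.73 ± 0.12 in WT and 0.39 ± 0.12 in RARaKO as sizes, the change 0.34 ± 0.16 and the start difference -0.57 (adjusted p = 0.0196). AW551984 had the same order, with 0.73, 0.58 and 0.76 in WT vehicle, -0.02, 0.50 and 0.13 in RARaKO vehicle, and a change of 0.34 ± 0.16. Its 2 other probe sets gave changes of -0.11 and -0.0031, and a second probe set of St8sia4 gave 0.02. With the 5′ minus 3′ covariate the start difference was -0.16 for AW551984 and -0.40 for St8sia4, neither called (adjusted p = 0.785 and 0.454), and the changes were 0.13 and 0.23. Without single arrays the start call of St8sia4 was lost 4 times (WT vehicle sets 2 and 4, RARaKO vehicle sets 3 and 4; adjusted p up to 0.0773), and that of AW551984 was lost without any WT array or the RARaKO vehicle arrays of sets 2 and 4 (up to 0.159). Of the 4 deepest average falls, that of AW551984 had the change of 0.34 given above. Those of Cdh9, Ptgs2 and Tnfsf11 had changes near 0 with wide intervals. For Cdh9, a cadherin gene, the change was 0.09 (95% interval -0.30 to 0.49). It was -0.03 (-0.65 to 0.59) for Ptgs2, the inducible cyclooxygenase, and -0.06 (-0.55 to 0.42) for Tnfsf11, the RANK ligand. With the 5′ minus 3′ covariate the change was 0.30 for Cdh9 and -0.30 for Ptgs2. The average fall of Ptgs2 was itself lost without any of 6 single arrays (adjusted p up to 0.0707). Ptgs2 was higher in RARaKO by 0.86 in vehicle and by 0.83 in atRA, both called (limma). The start call was lost without any of 5 single arrays (adjusted p up to 0.158) and with the covariate (adjusted p = 0.123). The end call was lost without any of 9 single arrays (adjusted p up to 0.1335) and with array weights. It held with the covariate (adjusted p = 0.0327).

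Other pathway lists were read by counts. Of 22 known retinoic acid targets 10 rose. Of these 8 had a ratio below 1 and 5 were smaller in all 3 sets, with a median ratio of 0.82, close to the 78.0%, 41.4% and 0.82 of all rising genes. Over the 22 genes 4 (Rarb, Dhrs3, Hoxb1 and Tgm2) had a change with an unadjusted p under 0.05, all below 0, 18.2% beside 2.53% of all genes. The change lay below 0 in all 3 sets for 7 of the 22, 31.8% beside 9.74% of all genes, and above 0 in all 3 for 1, 4.55% beside 12%. Tgm2, a crosslinking enzyme, was not called on average (adjusted p = 0.295). It read -0.08, -0.19 and -0.33 in WT vehicle, 0.28, 0.17 and 0.28 in WT atRA, -0.01, -0.02 and 0.26 in RARaKO vehicle and 0.01, -0.14 and 0.17 in RARaKO atRA. With this probe set only the WT arrays parted by condition, with 0.44 ± 0.10 (adjusted p = 0.0909) against -0.06 ± 0.10, a change of -0.50 ± 0.14, which was -0.30 with the 5′ minus 3′ covariate. Its 4 other probe sets gave -0.30, -0.28, -0.07 and -0.0034, and those of the smallest changes had nearly equal responses in both genotypes (0.51 and 0.45, and 0.19 and 0.19).

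Of 28 meiotic and germ cell genes 4 rose (Aurkc, Kit, Rec8 and Stra8), all with a ratio below 1 and 0 in the smaller class. In this list 10 genes were called higher in RARaKO in vehicle (2.04% of all genes) and 7 in atRA (1.73%), with 0 lower in either. Stk31, a germ cell kinase-like gene that was not a responder, was higher in vehicle by 0.58 (adjusted p = 0.00403) and had a change of -0.31 ± 0.13 (-0.58, 0.14 and -0.48 in the sets). Its second probe set gave a change of 0.09, and its start call was not kept with the 5′ minus 3′ covariate (adjusted p = 0.132). Tex14, of germ cell bridges, had a change of 0.20 ± 0.12.

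Of 31 pluripotency genes 1 rose (Eras, a Ras-like gene, 0.48 ± 0.08 against 0.24 ± 0.08, smaller in each set) and 2 fell (Foxd3 and Myc). Foxd3 had a fall of 0.29 ± 0.07 in WT and 0.44 ± 0.07 in RARaKO as sizes, and Sox2 a change of -0.19 ± 0.12. Of 23 FGF and ERK genes 2 rose, Dusp5 and Fgfr4, both with ratios below 1; Egr1 had a change of 0.37 ± 0.19 and Fgf17 of 0.17 ± 0.11. The start difference of Egr1, -0.58 (adjusted p = 0.0385), was lost without any of 5 single arrays (up to 0.155).

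Of 27 BMP, Nodal and TGF-beta genes 1 rose, Smad6, which inhibits BMP signalling (0.55 ± 0.08 against 0.28 ± 0.08, a ratio of 0.51 and smaller in each set, with a change of -0.27, or -0.15 with the covariate), and 2 fell, Id4 and Fst. Id4, which blocks helix-loop-helix factors, had a change of 0.18 ± 0.12, and Bmpr2, a BMP receptor gene, of 0.16 ± 0.11. The other probe sets of Id4 gave changes of -0.078 and -0.075, larger falls in RARaKO. Of 21 patterning factors 4 rose, all with ratios below 1: Cdx1, Snai1, Tshz1 and Pbx2, a Hox cofactor (0.56 ± 0.06 against 0.38 ± 0.06, with 3 of 3 probe sets below 0). Cdx2 had a change of -0.28 ± 0.12 and Meis3 of 0.17 ± 0.08, neither a responder.

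Markers of other fates held responders in some lists, beside 2.05% of all genes. Of 25 extraembryonic endoderm genes 1 rose, Foxa1 (0.66 ± 0.09 against 0.48 ± 0.09), and Lamb1, a laminin chain, and Thbd had changes of -0.18 ± 0.13 and -0.27 ± 0.13. Foxa1 was higher in RARaKO in vehicle by 0.48 (adjusted p = 0.0135), a call lost without the set 2 vehicle array of either genotype (0.0539 and 0.0667) and with the covariate (0.240). Of 19 neural genes 2 rose, Elavl3 and Sox3 (0.86 ± 0.12 against 0.59 ± 0.12), both smaller in each set, and 3 fell. Of 9 fibroblast genes Pdgfrb rose and Vim fell, and Col1a2, Postn and Col1a1 had changes of 0.18, -0.06 and -0.05. Of 10 trophoblast genes 0 were responders, with Hand1 at 0.20 ± 0.10 and Krt7 at -0.13 ± 0.13. Of 11 housekeeping genes 0 were responders, and Tbp, B2m and Hprt had changes of -0.07, -0.11 and 0.07. Median changes over whole lists lay between -0.11 (trophoblast) and 0.02 (FGF and ERK), beside 0.00 over all genes.

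Over all genes, not responders alone, the extreme changes of 1 sign in all 3 sets were not called either. The lowest were 2410003I16Rik (-0.63 ± 0.28), Rara, Rmdn2 (-0.54 ± 0.21), Tgm2 and 4930539J05Rik (-0.49 ± 0.11). The highest were Fgf2os (0.58 ± 0.22), Gabrg3, a GABA receptor subunit gene (0.56 ± 0.17), C9, a complement component (0.54 ± 0.14), Tigd5 (0.54 ± 0.13) and Gimap6 (0.51 ± 0.15). None of these 10 genes was a responder, and Rmdn2 and Tigd5 had probe sets of the other sign. The other probe sets of Gabrg3 gave changes of 0.27 and 0.021. The probe sets of Gimap6 and 4930539J05Rik lay in the lowest level class. 2410003I16Rik was higher in RARaKO in vehicle by 1.21 (adjusted p = 0.00535; 0.223 with the 5′ minus 3′ covariate), and Gabrg3 in atRA by 0.52 (adjusted p = 0.0357), the latter lost without any of 7 single arrays (up to 0.150). This call of Gabrg3 was also lost with the covariate (limma, adjusted p = 0.0966) and with the mean of its probe sets.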

How the data were processed

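F9 cells of 4 groups were read on 12 Affymetrix arrays, 3 per group. The deposited values are expression values that the authors made with GCRMA, per the submitters' processing notes. They were taken as log2 here, since neither the log base nor the centring is recorded for the deposited values: the median of every probe set is 0, tested on the values. The level class came from the number steps left by the precision of the values. The array design and any version are not given in the sources used here.

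After removal of 61 control probe sets from 37661, limma 3.58.1 in R 4.3.3 tested 37600 (a mean per group, 8 residual degrees of freedom, two-sided, Benjamini-Hochberg over all 37600). A gene was read by 1 probe set with a single symbol from the probe annotation (30488 probe sets, 16509 genes; 784 had several symbols and 6328 none): highest level class, least ambiguous type, lowest number. RefSeq promoter windows matched 255 of 339 responder genes.

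Named genes were Rara, Rarb, Rarg and Cyp26a1, the 8 strongest average rises and 4 falls, the 8 largest shrinkages and growths with 1 sign in all sets, the 5 lowest and 5 highest changes, and up to 3 genes by p from each of 14 lists. The comparison, members and lists were chosen with earlier results of these data known. The number of arrays limits the precision. The fits were checked on simulated data. Alternatives were the set as a block, array weights, median centring, robust variance, level class at least 8, the mean of probe sets, responders called in 1 genotype, other ratio limits and each array or set left out. The 5′ minus 3′ covariate, the shares of rising and falling genes and the calls of named genes under each alternative were added after seeing the data.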

Additional observations from a re-analysis of the deposited data

Results flagged for a closer look

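The change of response of 5 named genes was singled out because the 3 WT responses all went one way and the 3 RARaKO responses all went the other: Rara (-0.55) and 4930539J05Rik (-0.49), up in WT and down in RARaKO, and C9 (0.54), Tigd5 (0.54) and Gimap6 (0.51), down in WT and up in RARaKO. None of these changes passed the test of the difference itself (limma, adjusted p = 1.00). Over all 16509 genes 278 (1.68%) showed such opposite signs. The 5 genes are among the 5 lowest and 5 highest changes of 1 sign in all 3 sets, a choice that favours opposite responses. Some of the responses were close to 0. In set 4 Rara read 0.297 in RARaKO vehicle and 0.290 in RARaKO atRA, and Gimap6 read 0.057 in WT vehicle and 0.041 in WT atRA. In set 3 Tigd5 read 0 in WT vehicle and -0.019 in WT atRA.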

How the results depend on the processing

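No alternative that counted called changes over probe sets gave any: 0 were called in each, with array weights, the set as a block and every array or set left out among them. The mean of probe sets, responders called in a single genotype and other ratio limits gave no such count. The smallest adjusted p with the block was 1.00 over all probe sets (1633 with an unadjusted p under 0.05) and 0.328 over its responding probe sets alone. Among 68 named genes, 59 kept the sign of the change with every array or set left out and 62 under the other alternatives. Signs turned with array weights for Cyp26a1 (-0.0045), Ncmap (0.023) and Postn (0.011), with the 5′ minus 3′ covariate for B2m (0.0018), Ncmap (0.26) and Postn (0.034), and with the mean of probe sets for Col1a1 (0.079) and Zfp503 (-0.094); the cause was not tested. With arrays or sets left out the change ran from -0.037 to 0.14 for Cyp26a1, -0.26 to 0.14 for Ptgs2, -0.25 to 0.062 for Tnfsf11, -0.35 to 0.10 for Hoxa5, -0.037 to 0.20 for Cdh9, -0.24 to 0.032 for Ncmap, -0.19 to 0.049 for Postn, -0.092 to 0.0099 for Col1a1 and -0.22 to 0.014 for B2m.

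Set numbers paired the arrays only in part: 15 of 18 same-numbered pairs deviated together (correlation over 0.1, lowest 0.02), and all 12 arrays correlated best with their own number. With the replicate block 887 probe sets responded on average and the classes held 134 smaller and 51 larger genes, with 100 called starts and 96 called ends.

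Array weights gave 64 larger, 84 starts and 68 ends. The mean of probe sets gave 49 larger, 83 starts and 75 ends, and limits of 0.8 and 1.2 gave 142 smaller, 146 stayed and 51 larger. Level class at least 8 gave 380 probe sets and 8 larger genes. The covariate gave 353 probe sets, 126 stayed, 5 starts and a falling share of 70.8%. Responders called in WT alone, a choice that favours smaller ratios, gave 52, 80 and 0 genes by class, a median ratio of 0.74, 33 starts, 21 ends and shares of 93.9% and 94.1%. Those called in RARaKO alone, which favours larger ratios, gave 6, 51 and 8, 30 smaller in all sets, 19 starts, 14 ends and a falling share of 22.2%.

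With an array or set left out the average response ran from 116 to 548 probe sets, smaller genes from 17 to 86, stayed from 52 to 228, larger from 2 to 42, starts from 3 to 53, ends from 3 to 35, the rising share from 66.8% to 89.4%, the falling share from 43.8% to 71.4% and the median ratio from 0.78 to 0.92. Fewer arrays were tested in each. Without a single array the fit is unbalanced, so the choice of responders can itself move the ratios and shares.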
